A study of Mus musculus with 1505 samples.

Results

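Lamp5 Slc35d3 is a transcriptomic type (t-type) of GABAergic interneuron, and its 37 cells were set against the 53 cells of the other 6 Lamp5 t-types recorded in mouse primary motor cortex. The members were the cells that carried the label Lamp5 Slc35d3 among 1320 cells in the table of neurons recorded at room temperature, of which 1228 had a t-type and 92 a Lamp5 type. The other Lamp5 group held 24 cells of Lamp5 Pdlim5_2, 9 each of Lamp5 Egln3_1 and Lamp5 Egln3_2, 5 of Lamp5 Pax6, 4 of Lamp5 Pdlim5_1 and 2 of Lamp5 Egln3_3. The 2 cells of Lamp5 Lhx6 were left out. All of these neurons were measured by Patch-seq, in which a neuron in an acute slice is recorded with a glass pipette and its RNA is then drawn into the pipette and sequenced as 1 library per cell. The mice were adults of either sex with no treatment named, either wild type or carrying a Cre driver with the Ai9 reporter, and the labels give neither the line nor the animal of a cell. The 2 groups therefore could share animals or differ in line, and this cannot be told apart from the t-type. The nucleus was not always taken up, so a library can hold mostly cytoplasmic RNA.

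Interneurons of the Lamp5 family arise mostly in the caudal ganglionic eminence, and many are neurogliaform cells, which have a short, dense axon and release GABA as a diffuse cloud that reaches receptors outside synapses as well as inside them. Neuropeptide Y, reelin and the delta subunit of the GABA-A receptor have long been used to describe neurogliaform cells, and neuron-derived neurotrophic factor (Ndnf) marks many interneurons of layer 1. Lamp5, which names the family, encodes a brain-specific member of the lysosome-associated membrane protein family. Slc35d3, which names the t-type, encodes a member of the SLC35 family of nucleotide sugar transporters.

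The labels were given by the authors from this same RNA, by matching each cell to reference t-types, so a difference in the level of any gene is described here and is not independent of how the cells were chosen. Because no animal is named, each group counts as 1 sample and no test was made. A level is the summed exonic count of a group, scaled without spike-ins to CPM (counts per 1000000 counts), and a log2 fold change is Lamp5 Slc35d3 over the reference after 1 CPM is added to each level. A gene was called at least 2-fold higher or lower where this fold and that of the mean CPM per cell were both at least 1, or both at most -1. That threshold takes no account of the spread between cells, and intervals given with levels are 95% intervals that cover counting error only.

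The promoters shown were chosen for their genes: Slc35d3, which names the t-type, Npy, which was read in each of its cells, and Reln, which most of its cells lacked. Each run is the 250 bases before the start of the gene in RefSeq on GRCm38.p6, read 5′ to 3′ on the strand of the gene. Slc35d3 lies at chr10:19851460-19851709 on the minus strand, Npy at chr6:49822460-49822709 on the plus strand and Reln at chr5:22344706-22344955 on the minus strand. Capitals mark matches to any of 4 motifs searched on both strands, namely GCGNGGGCG for EGR factors, TGACGTCA for the cyclic AMP response element, CACGTG for an E-box and TATAAA for the TATA box.
Slc35d3: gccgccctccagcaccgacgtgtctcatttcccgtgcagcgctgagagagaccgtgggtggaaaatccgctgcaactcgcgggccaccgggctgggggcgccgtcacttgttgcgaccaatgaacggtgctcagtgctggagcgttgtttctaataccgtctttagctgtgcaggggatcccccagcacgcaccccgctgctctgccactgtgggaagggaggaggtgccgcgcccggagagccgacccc
Npy: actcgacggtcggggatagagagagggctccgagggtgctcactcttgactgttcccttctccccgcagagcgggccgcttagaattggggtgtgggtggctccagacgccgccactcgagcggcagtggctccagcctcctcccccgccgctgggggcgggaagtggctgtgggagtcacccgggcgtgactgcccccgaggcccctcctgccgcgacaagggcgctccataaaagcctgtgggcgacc
Reln: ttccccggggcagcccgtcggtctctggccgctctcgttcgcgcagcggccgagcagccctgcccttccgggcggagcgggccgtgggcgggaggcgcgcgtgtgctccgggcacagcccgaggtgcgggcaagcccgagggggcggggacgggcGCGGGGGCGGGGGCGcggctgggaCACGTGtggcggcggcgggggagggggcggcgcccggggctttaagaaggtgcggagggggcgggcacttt
The windows of Slc35d3 and Npy held no match, and that of Reln held 3, which were 2 overlapping EGR matches and 1 E-box. Among all 32851 promoters of the table, cut to the same length, 4.7% held the EGR motif, 1.55% the cyclic AMP response element, 6.02% the E-box and 12.4% the TATA box. Of the genes with enough level and reads to be described below, 7453 matched a promoter by name. Of these, 11.3% held the EGR motif in any promoter, 3.58% the cyclic AMP response element, 10.5% the E-box and 7.25% the TATA box. Only 78.6% of the genes higher in Lamp5 Slc35d3 and 78% of the genes lower matched a promoter by name, so the motif shares of the 2 sets were not compared.

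The libraries of Lamp5 Slc35d3 held 294150 to 8180252 exonic counts per cell with a median of 1223974, against 72692 to 9480497 with a median of 1152740 in other Lamp5 cells. A median of 6302 genes were detected in Lamp5 Slc35d3 cells and 6759 in other Lamp5 cells, and introns held a median of 28.8% of the counts against 36.7%. The groups were recorded on 22 and 35 days, of which 4 held both. Recording period moved with the label, since 23 Lamp5 Slc35d3 cells but 7 other Lamp5 cells came from July to December of the last recording year, and 9 against 38 from April to June of it. In 1 Lamp5 Slc35d3 cell the spike-ins held 72.4% of the counts, and in it Npy stood at 203 CPM and Lamp5 at 53.1 CPM.

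The label fitted the defining markers in part. Slc35d3 was read in 10 of 37 Lamp5 Slc35d3 cells and in 7 of 53 other Lamp5 cells. After each cell was thinned to 200000 exonic counts, the cells with a read numbered 10 of 37 and 6 of 51, so the shares at equal depth were close to those at full depth. The median cell was at 0 in both groups, and the highest cell reached 271 CPM in Lamp5 Slc35d3, against 124 CPM in other Lamp5. Summed over cells, the level of Slc35d3 was 32.5 CPM (31.1 to 33.9) in Lamp5 Slc35d3 and 6.12 CPM (5.58 to 6.70) in other Lamp5, a log2 fold change of 2.23. Without the added CPM the log2 ratio was 2.41, with a counting interval of 2.26 to 2.56. Most cells of the t-type thus carried no read of the gene that names it, and the cells with and without it overlapped those of the other types.

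Among the other Lamp5 types, reads of Slc35d3 came only from Lamp5 Pdlim5_2, at 8.66 CPM with 6 of 24 cells, and from Lamp5 Egln3_1, at 7.98 CPM with 1 of 9 cells. Lamp5 Egln3_2, Lamp5 Egln3_3, Lamp5 Pax6 and Lamp5 Pdlim5_1 had none. In the neighbouring families, Slc35d3 stood at 3.57 CPM over the 152 Vip cells and at 0 over the 13 Sncg cells. Intronic levels of Slc35d3 were 0.414 CPM in Lamp5 Slc35d3 and 0.436 CPM in other Lamp5, too low to show a difference once 1 CPM was added. The gene spans chr10:19847916-19851459 on the minus strand in the Gencode M21 annotation of GRCm38.

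Lamp5 itself was read in 36 of 37 Lamp5 Slc35d3 cells and 43 of 53 other Lamp5 cells. Its level was 1142 CPM in Lamp5 Slc35d3 and 821 CPM in other Lamp5, a log2 fold change of 0.47 that did not pass the fold. Per cell it ran from 0 through a median of 955 to 2431 CPM in Lamp5 Slc35d3, and from 0 through a median of 826 to 2651 CPM in other Lamp5. The ranges of the groups overlapped throughout. The lowest type was Lamp5 Egln3_1, whose 9 cells together held 4.65 CPM of Lamp5 with 3 cells read, so that this type went against its family label. Lamp5 Pax6 held 254 CPM, but only 2 of its 5 cells were read, with a median of 0 and a highest cell of 1042 CPM. Without Lamp5 Egln3_1, the log2 fold change of Lamp5 was 0.20 and that of Slc35d3 was 2.32.

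The other genes that name Lamp5 types were low in Lamp5 Slc35d3. Egln3, a prolyl hydroxylase that senses oxygen, was read in 1 of 37 Lamp5 Slc35d3 cells and 19 of 53 other Lamp5 cells, with levels of 0.871 and 80.1 CPM. Its log2 fold change was -5.44, and ran from -6.34 to -4.87 as each cell was left out in turn. Against the Pdlim5 types alone it was 0.47, since Egln3 stood at 0.336 CPM in Lamp5 Pdlim5_2 and 0.492 CPM in Lamp5 Pdlim5_1. Pax6, a homeodomain transcription factor, had 7.80 CPM in Lamp5 Slc35d3 and 35.4 CPM in other Lamp5, for a log2 fold change of -2.05, and its reads came mainly from Lamp5 Pax6 at 270 CPM and Lamp5 Egln3_1 at 121 CPM. Pdlim5, an adaptor of the cytoskeleton, was read in no Lamp5 Slc35d3 cell and in 3 of 53 other Lamp5 cells, all of Lamp5 Pdlim5_2, at 16.6 CPM over other Lamp5. It was not described, since it was read in fewer than 9 cells. Lhx6, a transcription factor of the medial ganglionic eminence, had 0.0311 CPM in Lamp5 Slc35d3 and 0.117 CPM in other Lamp5.

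Of 9846 genes with at least 10 CPM on average over the 2 levels and a read in at least 9 of the 90 cells, 561 were at least 2-fold higher in Lamp5 Slc35d3, or 5.7%, and 880 at least 2-fold lower, or 8.94%. The median log2 fold change over all 9846 genes was -0.0568, and the middle 50% of genes lay between -0.589 and 0.449. The counts depended on which cells were compared. Within April to June there were 768 higher and 1346 lower genes, which held 38% and 51.6% of the first sets. Within July to December there were 1148 higher and 637 lower genes, which held 37.4% and 21.5% of the first sets. On the 4 days with both groups, with 7 Lamp5 Slc35d3 and 5 other Lamp5 cells, the counts were 283 and 214, and held 3.74% and 1.82%.

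The libraries that stood apart were Lamp5 Egln3_1 and the cell of mostly spike-ins, and the comparison with all other Lamp5 cells was also made without each of them in turn. Without Lamp5 Egln3_1 there were 600 higher and 772 lower genes, which held 80.7% and 73.6% of the first sets. The log2 fold changes of Npy, Gabrd, Sema5a and Lsp1 were then 1.82, 1.76, 1.97 and 4.02, and those of Reln, Cxcl14, Ndnf and Rxfp1 were -3.87, -6.29, -5.41 and -7.55. Moves of over 1.5 times were seen for Egln3 at -4.07, Slc35f1 at -1.19, Pax6 at -1.03, Nr2f2 at -1.53, Npas3 at -4.13, Npy1r at -5.59, Sez6l at -5.10, Cnr1 at -2.29, Sv2b at 4.79, Npas1 at -4.60 and Ntrk3 at -3.57 among the genes named in the text. Without the Lamp5 Slc35d3 cell of mostly spike-ins there were 571 higher and 857 lower genes, and the fold of Npy was 2.11 and that of Reln -3.98.

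Neuropeptide Y, the peptide transmitter classically used to describe neurogliaform cells, was higher in Lamp5 Slc35d3. Npy was read in 37 of 37 Lamp5 Slc35d3 cells, from 122 through a median of 8946 to 26522 CPM, and in 44 of 53 other Lamp5 cells, from 0 through a median of 939 to 10347 CPM. Of the Lamp5 Slc35d3 cells, 35 lay above the median of the other Lamp5 cells and 14 above their highest cell, while 1 other Lamp5 cell exceeded the median of Lamp5 Slc35d3. The groups still overlapped. The level of Npy was 10367 CPM in Lamp5 Slc35d3 and 2417 CPM in other Lamp5, a log2 fold change of 2.10. No single cell decided this value, which stayed between 1.99 and 2.19 as each cell was left out.

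The level of Npy graded across the types. After Lamp5 Slc35d3 at 10367 CPM came Lamp5 Pdlim5_2 at 4102, Lamp5 Pdlim5_1 at 1448, Lamp5 Egln3_3 at 1381, Lamp5 Egln3_2 at 275, Lamp5 Egln3_1 at 44.5 and Lamp5 Pax6 at 1.72 CPM. The Vip cells stood at 367 CPM and the Sncg cells at 1356 CPM, so the lowest Lamp5 types lay below both families. Against the Pdlim5 types alone the log2 fold change was 1.42. Within recording periods it was 2.30 in April to June and 1.98 in July to December. On the 4 days with both groups, Lamp5 Slc35d3 cells had 122, 26522, 10337 and 6396 CPM, against 0, 2956, 7507 and 843 CPM in other Lamp5 cells of the same day, so Npy was higher on each of the 4 days.

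**Figure D1:**
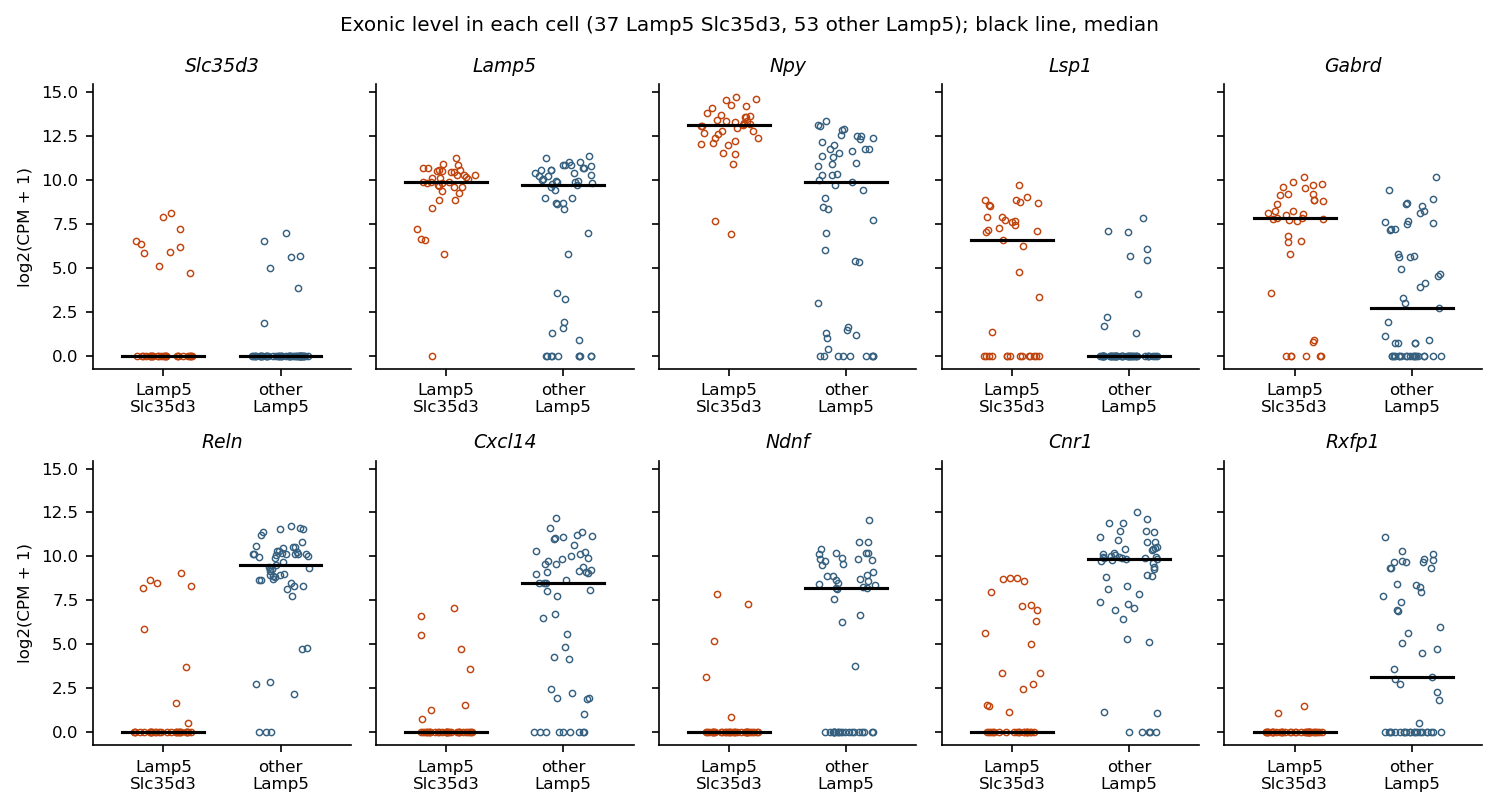
Exonic level of 10 genes in each cell, as log2(CPM + 1) on the vertical axis, for 37 Lamp5 Slc35d3 cells (left in each panel) and 53 other Lamp5 cells (right). Points are single cells and black lines are medians. Npy was read in every Lamp5 Slc35d3 cell, whereas the medians of Reln, Cxcl14, Ndnf, Cnr1 and Rxfp1 were 0 in Lamp5 Slc35d3 and above 0 in other Lamp5.

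Gabrd and Gabra5, which encode subunits of GABA-A receptors that lie largely outside synapses, were higher in Lamp5 Slc35d3. Gabrd was read in 31 of 37 Lamp5 Slc35d3 cells and 34 of 53 other Lamp5 cells, with medians of 230 and 5.49 CPM. Its highest cells were alike, at 1135 CPM in Lamp5 Slc35d3 and 1141 CPM in other Lamp5, so the groups differed in how many cells were high. The level of Gabrd was 339 CPM in Lamp5 Slc35d3 and 82.7 CPM in other Lamp5, a log2 fold change of 2.02, and it was higher on 4 of the 4 days with both groups. Among the other types it was highest in Lamp5 Pax6, at 153 CPM, and Lamp5 Pdlim5_2, at 128 CPM. Gabra5 stood at 243 CPM in Lamp5 Slc35d3 and 105 CPM in other Lamp5, a log2 fold change of 1.20. Nearly all of the Gabra5 in the reference came from Lamp5 Pdlim5_2 at 189 CPM, and against the Pdlim5 types the log2 fold change was 0.47. Of 13 GABA receptor subunits described, 2 were higher and 1 was lower, beside 5.7% and 8.94% of all described genes, with a median of -0.0439. Of 7 genes of GABA synthesis and transport, 0 were higher and 1 lower, with a median of 0.425.

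The transmembrane semaphorin Sema5a was read in 30 of 37 Lamp5 Slc35d3 cells, from 0 through a median of 268 to 1505 CPM, and in 22 of 53 other Lamp5 cells, from 0 through a median of 0 to 634 CPM. Its levels were 440 CPM in Lamp5 Slc35d3 and 91.7 CPM in other Lamp5, a log2 fold change of 2.25, with 10 Lamp5 Slc35d3 cells above every other Lamp5 cell. Sema5a was not read in Lamp5 Egln3_1 or Lamp5 Pax6, and it was higher in Lamp5 Slc35d3 on 4 of 4 shared days. Lsp1, an actin-binding protein first found in leukocytes that also names a Lamp5 type in other cortical areas, was read in 23 of 37 Lamp5 Slc35d3 cells and 10 of 53 other Lamp5 cells. The levels of Lsp1 were 202 CPM in Lamp5 Slc35d3 and 9.50 CPM in other Lamp5, a log2 fold change of 4.28, and 10 Lamp5 Slc35d3 cells lay above the highest other Lamp5 cell at 230 CPM. The annotated spans of Lsp1 and Prr33 overlap. The libraries keep no strand, so reads from sequence that is exonic in both genes could not be assigned, and whether their exons overlap was not examined.

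Lsp1, Nfia, Tex9, Dok5, Akain1, Tcp11l1, Sema5a, Cpne4, Atg7, Tmem263, Cwc27 and Egr4 were the 12 higher genes with the largest folds that met a rule on level, breadth over cells and days, and steadiness. Nfia, a transcription factor of the nuclear factor I family, had 127 CPM in Lamp5 Slc35d3 and 15.2 CPM in other Lamp5, a log2 fold change of 2.98. Dok5, an adaptor of receptor tyrosine kinases, had 180 and 28.4 CPM with a fold of 2.62 on the log2 scale, and was higher on 4 of 4 shared days. The others ran from 2.14 for Egr4, an immediate early transcription factor, to 2.90 for Tex9. Cpne4 is a calcium-dependent membrane-binding copine, Akain1 an inhibitor of kinase anchoring, Atg7 an enzyme of autophagosome formation and Cwc27 a spliceosome-associated protein. Detection was wider in Lamp5 Slc35d3 for most of them, for example 23 of 37 cells against 9 of 53 for Cpne4 and 19 of 37 against 9 of 53 for Akain1. Against Lamp5 Pax6 alone, the log2 fold change of Atg7 was -0.47 and that of Tmem263 was -0.02, and from intronic counts that of Tmem263 was -0.23. The annotated span of Tex9 overlaps that of Mns1, and likewise Tcp11l1 that of Cstf3, Tmem263 that of Mterf2 and Cwc27 that of Srek1ip1, with the same limit as for Lsp1.

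Reelin was the counterpart of neuropeptide Y. Reln, a secreted glycoprotein of the extracellular matrix, was read in 9 of 37 Lamp5 Slc35d3 cells, from 0 through a median of 0 to 529 CPM, and in 50 of 53 other Lamp5 cells, from 0 through a median of 734 to 3411 CPM. No Lamp5 Slc35d3 cell reached the median of the other Lamp5 cells, and 32 other Lamp5 cells exceeded the highest Lamp5 Slc35d3 cell. The level was 53.7 CPM (51.9 to 55.5) in Lamp5 Slc35d3 and 870 CPM (863 to 876) in other Lamp5, a log2 fold change of -3.99. Each of the other 6 types held more Reln than Lamp5 Slc35d3, with Lamp5 Egln3_3 the lowest of them at 292 CPM. Within recording periods the fold was -5.16 in April to June and -3.60 in July to December. On the shared days Reln was lower in Lamp5 Slc35d3 on 3 and higher on 1. Its gene body overlaps 4 small annotated transcripts, Gm16111, Gm10475, Gm16112 and Gm16110.

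The chemokine Cxcl14 was read in 8 of 37 Lamp5 Slc35d3 cells, up to 134 CPM, and in 44 of 53 other Lamp5 cells, from 0 through a median of 361 to 4656 CPM. Its level was 5.46 CPM in Lamp5 Slc35d3 and 640 CPM in other Lamp5, a log2 fold change of -6.63. Every other type was above Lamp5 Slc35d3, with Lamp5 Pdlim5_2 the lowest of them at 64 CPM, and the fold against the Pdlim5 types was -3.88. Ndnf was read in 5 of 37 Lamp5 Slc35d3 cells and 33 of 53 other Lamp5 cells, with levels of 12.7 and 477 CPM and a log2 fold change of -5.13. One Lamp5 Slc35d3 cell gave 72.9% of the Ndnf counts of its group, and leaving out single cells moved the fold between -6.71 and -4.95. Ndnf was also at 0 in Lamp5 Egln3_1 and Lamp5 Pax6, so its absence was shared with those types, and against Lamp5 Pax6 the fold was 3.77. Of the 10 neurogliaform and layer 1 markers, Npy and Gabrd were higher, Reln and Ndnf lower, and the other 6 within 2-fold. The shares over all described genes were 5.7% higher and 8.94% lower.

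**Figure D2:**
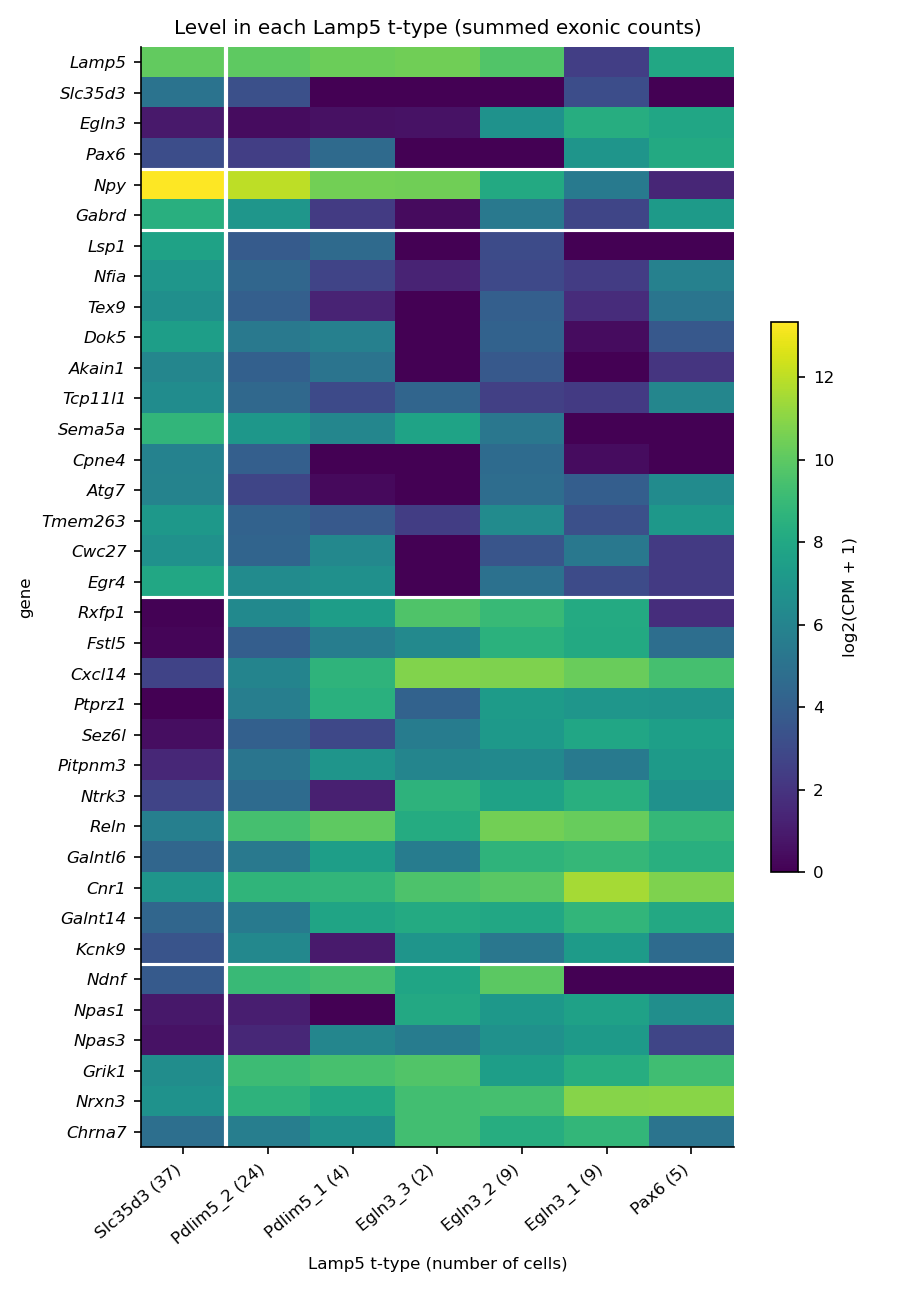
Level of genes named in the text in each Lamp5 t-type, coloured by log2(CPM + 1) of the summed exonic counts, with the number of cells of each type in brackets and Lamp5 Slc35d3 left of the white line. Rows hold type names, Npy and Gabrd, the 12 genes higher and the 12 lower with the largest folds, and further genes lower in Lamp5 Slc35d3. The neurogliaform and layer 1 markers Reln and Ndnf stand among the lower genes. Npy is at 10367 CPM in Lamp5 Slc35d3, against 1.72 CPM in Lamp5 Pax6, and Reln is lower in Lamp5 Slc35d3, at 53.7 CPM, than in any other type.

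Cnr1, which encodes the cannabinoid receptor CB1, was read in 18 of 37 Lamp5 Slc35d3 cells, from 0 through a median of 0 to 439 CPM, and in 48 of 53 other Lamp5 cells, from 0 through a median of 929 to 5835 CPM. No Lamp5 Slc35d3 cell reached the median of the other Lamp5 cells. The level was 122 CPM in Lamp5 Slc35d3 and 1014 CPM in other Lamp5, a log2 fold change of -3.04. On the shared days the fold was -0.18, with Cnr1 lower on 3 days and higher on 1. Cnr1 was highest in Lamp5 Egln3_1 at 2935 CPM and Lamp5 Pax6 at 1707 CPM, and stood at 428 CPM in Lamp5 Pdlim5_2. For scale, the Vip family held 1084 CPM and the Sncg family 4896 CPM of the same gene. Mgll, whose product breaks down an endocannabinoid, went the other way, with 396 CPM in Lamp5 Slc35d3 and 152 CPM in other Lamp5 and a log2 fold change of 1.38. Mgll was read in 33 of 37 and 45 of 53 cells. Of 8 endocannabinoid genes, 2 were higher and 1 lower, beside 5.7% and 8.94% of all described genes.

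Rxfp1, a receptor for the peptide relaxin, was close to absent from Lamp5 Slc35d3. It had 4 reads in 2 of 37 Lamp5 Slc35d3 cells, against 16420 reads in 32 of 53 other Lamp5 cells, or 0.0622 CPM (0.0170 to 0.159) against 214 CPM (210.9 to 217.5). Its log2 fold change was -7.66, and without the added CPM the log2 ratio was -11.75 (-13.62 to -10.39). Rxfp1 was also low in Lamp5 Pax6, at 2.41 CPM. On the shared days its fold was -0.42, and it was lower on 1 day and equal on 3. Npy1r, a receptor for neuropeptide Y, was read in 1 of 37 Lamp5 Slc35d3 cells and 21 of 53 other Lamp5 cells, with 0.0778 and 88.6 CPM and a log2 fold change of -6.38, and was highest in Lamp5 Egln3_3 at 483 CPM and Lamp5 Egln3_1 at 264 CPM. Hcrtr2, an orexin receptor, had 59.2 CPM in Lamp5 Slc35d3 and 14.8 CPM in other Lamp5, and its log2 fold change of 1.93 ran from 1.25 to 2.60 as single cells were left out. Of 7 neuropeptide receptors described, 2 were higher and 4 lower, beside 5.7% and 8.94% of all described genes. Their median was -1.04 and became 0.84 within July to December.

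The other genes of the 12 lower with the largest folds included surface proteins and enzymes. Ptprz1, a receptor tyrosine phosphatase, had 1 read in Lamp5 Slc35d3 and 7482 in other Lamp5, a log2 ratio of -12.61 with a counting interval of -17.92 to -10.14. Fstl5, a secreted follistatin-like protein, was read in 2 of 37 Lamp5 Slc35d3 cells and 30 of 53 other Lamp5 cells, with 0.124 and 116 CPM. Its log2 fold change was -6.70, and -0.14 on the shared days, where it was lower on 1 day and equal on 3. Ntrk3, the receptor for neurotrophin-3, had 5.57 CPM in Lamp5 Slc35d3 and 124 CPM in other Lamp5, a log2 fold change of -4.24. Galntl6 and Galnt14, of the family that adds the first sugar of mucin-type glycans, had folds of -3.19 and -3.02. Kcnk9, a leak potassium channel, had a fold of -2.89, Sez6l one of -5.86 and Pitpnm3 one of -4.31. Pitpnm3 was 0.91 from intronic counts and -0.34 within July to December.

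Cadherins, which hold neurons together through like-to-like binding, had the lowest median of the lists. Of 17 cadherin and protocadherin genes described, 11 were at least 2-fold lower and 1 higher, beside 8.94% and 5.7% of all described genes, with a median of -2.48 against -0.0568 over all described genes. Pcdh18 had no read in Lamp5 Slc35d3 and 70.1 CPM in other Lamp5, at least 1501-fold lower against a floor of 3 counts over the group, and Pcdh11x had 3 reads against 3208, a log2 ratio of -9.81 (-12.09 to -8.26). Both came from few cells, 17 and 9 of 53 other Lamp5 cells, and in Lamp5 Pdlim5_2 they stood at 0.0959 and 0.192 CPM. Against the Pdlim5 types alone, the median of the list was -0.19, and it was 0.00 from intronic counts and on the shared days. Pcdh15, the only member that was higher and a gene chosen after its values were seen, had 40.6 CPM in Lamp5 Slc35d3 and 0.991 CPM in other Lamp5, a log2 fold change of 4.39 that ran from 3.69 to 4.57 with single cells left out.

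Genes of the extracellular matrix and secreted factors went the same way, with 9 of 19 described lower and 0 higher, where 8.94% and 5.7% of all described genes were so called, and a median of -0.465. Besides Reln, Cxcl14 and Ndnf, the inhibitor of matrix proteases Timp3 had no read in Lamp5 Slc35d3 and 63 CPM in other Lamp5, at least 1349-fold lower against the same floor, in 21 of 53 cells. Timp3 lies within Syn3. Its relative Timp2 had 6.22 CPM in Lamp5 Slc35d3 and 176 CPM in other Lamp5, a log2 fold change of -4.62 that ran from -6.37 to -4.37 as single cells were left out. Timp2 was nonetheless 1.41 within July to December and higher in Lamp5 Slc35d3 on 4 of 4 shared days. On those days it stood at 3.39, 9.98, 6.71 and 41.1 CPM, against 0, 0.951, 0.503 and 0 CPM in other Lamp5. One Lamp5 Slc35d3 cell gave 84% of the Timp2 counts of its group, so these settings rest on few cells. Whether its direction depended on the period was not tested.

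Synaptic adhesion genes had 4 of 17 described lower and 1 higher, beside 8.94% and 5.7% of all described genes, with a median of -0.819. Nrxn3, a presynaptic neurexin, was read in 29 of 37 Lamp5 Slc35d3 cells with a median of 79.2 CPM, and in 51 of 53 other Lamp5 cells with a median of 522 CPM. Its levels were 109 CPM in Lamp5 Slc35d3 and 772 CPM in other Lamp5, a log2 fold change of -2.81. Cntnap2, a neurexin-like protein that clusters potassium channels on axons, had 289 and 867 CPM and a fold of -1.58. Tenm1, a teneurin, had a fold of -1.88. On the shared days the folds of Nrxn3 and Tenm1 were 0.02 and 2.09. Of 23 axon guidance genes, 2 were higher and 5 lower, and Sema3e, a secreted semaphorin, was lower with 27.3 CPM in Lamp5 Slc35d3 and 197 CPM in other Lamp5, a fold of -2.80.

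**Figure D3:**
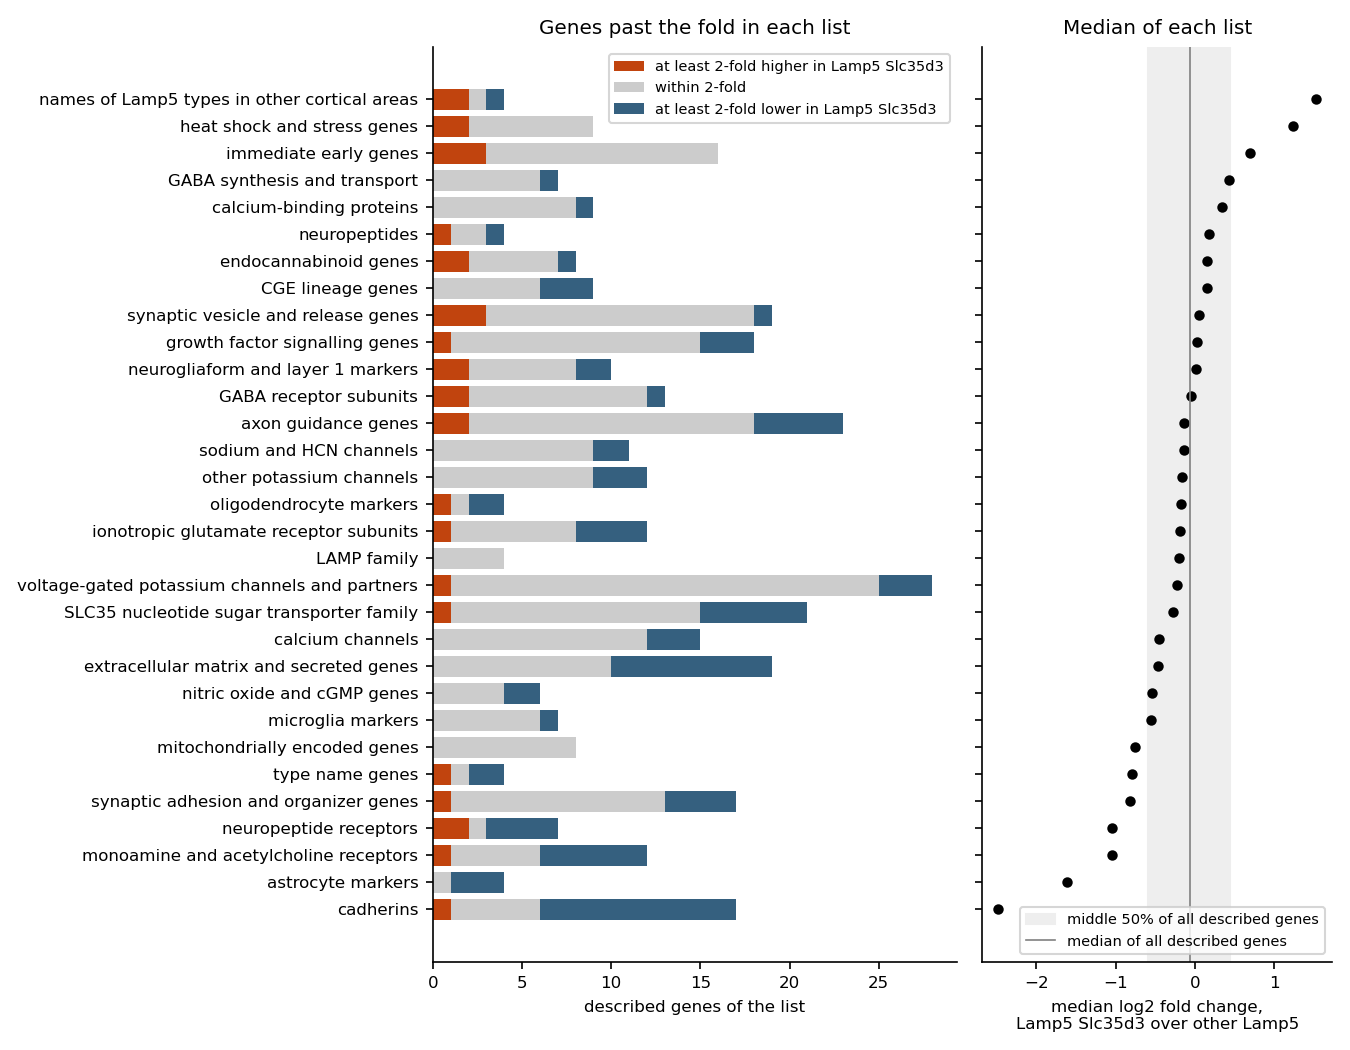
Left, number of described genes of each list that were at least 2-fold higher in Lamp5 Slc35d3, within 2-fold, or at least 2-fold lower. Right, median log2 fold change of each list, Lamp5 Slc35d3 over other Lamp5, with the median of all described genes (line) and their middle 50% (grey). Cadherins stand lowest, with 11 of 17 genes lower and a median of -2.48.

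Receptors for glutamate, acetylcholine and serotonin were mostly lower where they passed the fold. The kainate receptor subunit Grik1 was read in 21 of 37 Lamp5 Slc35d3 cells, from 0 through a median of 8.27 to 2074 CPM, and in 46 of 53 other Lamp5 cells, from 0 through a median of 370 to 1716 CPM. Its levels were 91.8 CPM in Lamp5 Slc35d3 and 489 CPM in other Lamp5, a log2 fold change of -2.40, and each of the other 6 types held more. Grik2, another kainate subunit, had 223 and 645 CPM and a fold of -1.53. Of 12 ionotropic glutamate receptor genes, 4 were lower and 1 higher, beside 8.94% and 5.7% of all described genes. The metabotropic receptor Grm5 stood at 409 CPM in Lamp5 Slc35d3 and 413 CPM in other Lamp5. Chrna7, a subunit of nicotinic acetylcholine receptors, was read in 15 of 37 and 43 of 53 cells, with 27.8 and 190 CPM and a fold of -2.73. The serotonin receptor Htr1f, by contrast, had 57.6 CPM in Lamp5 Slc35d3 and 9.93 CPM in other Lamp5, a log2 fold change of 2.42 that ran from 2.08 to 3.07 with single cells left out and was -4.90 on the shared days. Of 12 monoamine and acetylcholine receptors described, 6 were lower and 1 higher, with a median of -1.05 that became 0.54 within July to December and -0.06 against the Pdlim5 types. Against those types Chrna7 and Grik2 had folds of -0.99 and -0.69 and were not called.

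Lists of ion channels and of the release machinery had medians between -0.453 for calcium channels and 0.0508 for synaptic vesicle genes. Of 28 voltage-gated potassium channel genes and partners, 3 were lower and 1 higher, with a median of -0.222, and these counts were near the 8.94% and 5.7% of all described genes. Of 15 calcium channel genes, 3 were lower and 0 higher. Of 12 other potassium channel genes, 3 were lower and 0 higher, and of 11 sodium and HCN channel genes, 2 were lower and 0 higher. In the calcium, other potassium, and sodium and HCN lists the share lower was above the 8.94% of all described genes. Kcnd3, an A-type potassium channel, had 42.9 CPM in Lamp5 Slc35d3 and 140 CPM in other Lamp5, a log2 fold change of -1.68 that was 0.04 from intronic counts. Scn2a, a sodium channel of the axon initial segment, had a fold of -1.09 that ran from -1.28 to -0.90 with single cells left out. Of 19 synaptic vesicle genes, 3 were higher and 1 lower, beside 5.7% and 8.94% of all described genes. Sv2b, a synaptic vesicle glycoprotein, had 42.5 CPM in Lamp5 Slc35d3 and 1.59 CPM in other Lamp5, with a log2 fold change of 4.07 that ran from 3.51 to 4.82 as single cells were left out. Rab3b, a small GTPase of vesicles, had a fold of 1.03 that ran from 0.90 to 1.20 with single cells left out, and Cplx2, which regulates fusion, one of -1.44, which became 0.74 against the Pdlim5 types.

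Genes of the caudal ganglionic eminence were mostly within 2-fold, with 3 of 9 lower and 0 higher, beside 8.94% and 5.7% of all described genes. The 3 were the transcription factors Npas1, Npas3 and Nr2f2, with log2 fold changes of -5.29, -4.97 and -2.44. Npas1 was at 0.840 CPM in Lamp5 Slc35d3 and 71 CPM in other Lamp5, but Lamp5 Pdlim5_2 stood at 1.20 CPM and Lamp5 Pdlim5_1 at 0, so that the gene was low in all 3 of these types and present in the Egln3 types and Lamp5 Pax6. Against the Pdlim5 types the folds of Npas1 and Nr2f2 were -0.19 and -0.75. Within the SLC35 family, 21 genes were described, of which Slc35d3 was the only one higher and 6 were lower. Slc35f1, one of the lower, had 18.5 CPM in Lamp5 Slc35d3 and 90.8 CPM in other Lamp5, and a fold of -0.02 against the Pdlim5 types. Lamp1, the ubiquitous relative of Lamp5, had a fold of 0.16. Plch2, a phospholipase C that names another Lamp5 type, had 97.2 CPM in Lamp5 Slc35d3 and 33.9 CPM in other Lamp5, with a log2 fold change of 1.49 that ran from 1.37 to 2.16 as single cells were left out.

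The 28 cells of the Pdlim5 types were also taken as the reference alone, and this gave 718 genes higher and 772 lower of 9529 described, or 7.53% and 8.1%. The comparison uses the same Lamp5 Slc35d3 cells as the first, and its cells are part of the first reference. It shared 380 of the higher genes, which were 67.7% of the first set and 52.9% of the second, and 505 of the lower genes, or 57.4% and 65.4%. Lsp1, Npy, Gabrd and Sema5a stayed higher, with log2 fold changes of 3.74, 1.42, 1.52 and 1.77 against the Pdlim5 types. Reln, Ndnf, Rxfp1, Cxcl14 and Cnr1 stayed lower, with -3.69, -5.29, -6.39, -3.88 and -1.81. Of the genes called higher above, Gabra5, Plch2, Rab3b and Dusp1 had folds of 0.47, 0.79, 0.54 and 0.82 and were not called, and neither was Egr4 at 1.56, whose fold of the mean per cell fell short. Of the genes called lower, Grik2, Scn2a, Chrna7, Nr2f2 and Slc35f1 had -0.69, -0.77, -0.99, -0.75 and -0.02 and were not called, and Cplx2 had 0.74. Fstl5, Sez6l, Npy1r, Npas3, Pcdh18 and Pcdh11x were below the filter on level in this comparison, with -4.06, -3.50, -4.08, -2.44, -1.14 and -3.36. Npas1, Pax6 and Egln3 were also below it, with -0.19, 0.27 and 0.47.

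**Figure D4:**
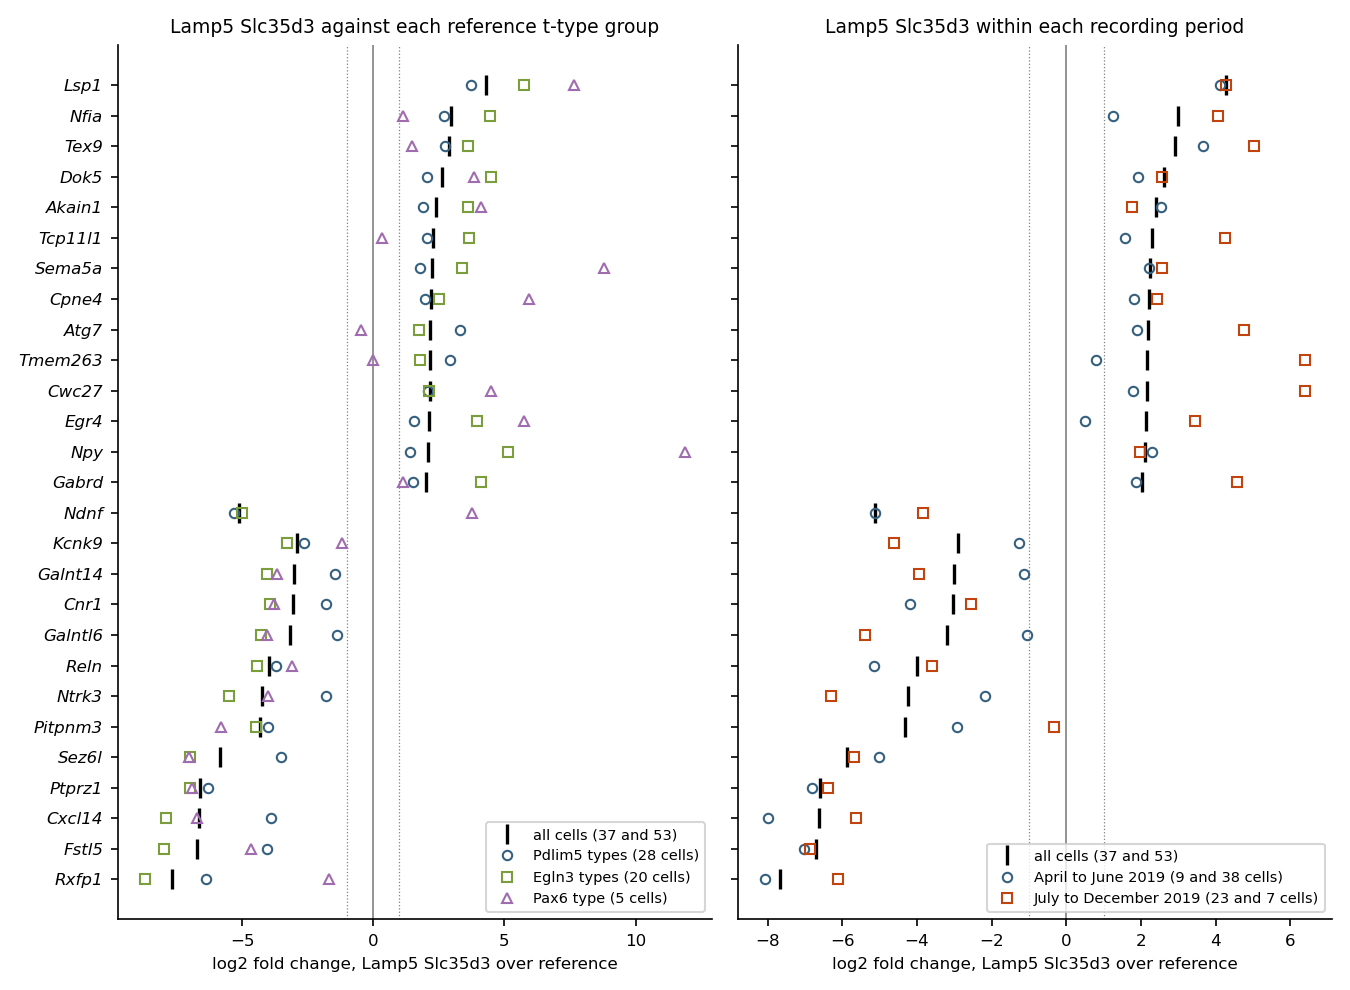
Log2 fold change of genes named in the text, Lamp5 Slc35d3 over the reference, on the horizontal axis. Black bars give all cells in both panels. Open symbols give the Pdlim5, Egln3 and Pax6 types as the reference (left) and the 2 main recording periods (right), with dotted lines at a 2-fold difference. Npy keeps its direction in every setting plotted, from 1.42 against the Pdlim5 types, whereas Ndnf is 3.77 against Lamp5 Pax6.

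Immediate early genes, which neurons transcribe within minutes of activity or stress, leaned higher in Lamp5 Slc35d3. Of 16 described, 3 were at least 2-fold higher and 0 lower, beside 5.7% and 8.94% of all described genes, with a median of 0.693. Dusp1, a phosphatase of MAP kinases, was read in 36 of 37 Lamp5 Slc35d3 cells and 46 of 53 other Lamp5 cells, with levels of 946 and 394 CPM and a log2 fold change of 1.26. In 35 of the Lamp5 Slc35d3 cells it lay above the median of the other Lamp5 cells, and it was higher on 4 of 4 shared days. Egr4 had 256 CPM in Lamp5 Slc35d3 and 57.4 CPM in other Lamp5, and a fold of 0.50 within April to June. Egr2 had a fold of 1.94, and -0.22 from intronic counts. The summed immediate early genes of a cell had a median of 4875 CPM in Lamp5 Slc35d3 and 2667 CPM in other Lamp5, of which Lamp5 Pdlim5_2 had a median of 4058 CPM. Against the Pdlim5 types the median of the list was 0.26 and neither Dusp1 nor Egr4 was called, while against the Egln3 types and Lamp5 Pax6 the median was 1.89 and 3.53. Of 9 heat shock and stress genes, 2 were higher and 0 lower, with a median of 1.24. That median was 0.68 from the mean CPM per cell, 0.50 from the mean over recording days and 0.20 on the shared days. It was 0.52 within April to June and 1.29 within July to December, and ran from 0.65 to 1.39 with single cells left out. Hsph1, a chaperone, had 535 CPM in Lamp5 Slc35d3 and 202 CPM in other Lamp5. Atf3, a stress-induced transcription factor, had 167 and 40.6 CPM and a fold of 2.01. Atf3 was read in 14 of 37 Lamp5 Slc35d3 cells and 17 of 53 other Lamp5 cells. Its median was 0 CPM in both groups, and a single Lamp5 Slc35d3 cell gave 37.7% of the Atf3 counts of its group. From the mean over recording days its fold was 0.50. Of 8 mitochondrially encoded genes described, 0 passed the fold in either direction, with a median of -0.758.

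Markers of other cells moved with the label in some cases. Of 4 astrocyte markers described, 3 were lower and 0 higher, beside 8.94% and 5.7% of all described genes. The sum of the astrocyte markers per cell ran from 0 through a median of 138 to 1911 CPM in Lamp5 Slc35d3. In other Lamp5 it ran from 0 through a median of 359 to 5571 CPM. The glial glutamate transporter Slc1a2 had 66.3 CPM in Lamp5 Slc35d3 and 214 CPM in other Lamp5. Of 7 microglia markers, 0 were higher and 1 lower, with median sums of 211 CPM in Lamp5 Slc35d3 and 361 CPM in other Lamp5 cells. Of 4 oligodendrocyte markers, 1 was higher and 2 lower, and the higher one, Mobp, was read in 13 of 37 and 18 of 53 cells. The sum of the oligodendrocyte markers had a median of 145 CPM in Lamp5 Slc35d3 and 39.8 CPM in other Lamp5 cells, the other way from the astrocyte markers. Of 2 Vip and Sncg cell markers described, 1 was lower, with a median of -0.921 that was 0.25 without Lamp5 Egln3_1, and the list summed to a median of 84 CPM in Lamp5 Slc35d3 and 142 CPM in other Lamp5 cells. Precursor, endothelial and Sst or Pvalb cell markers had 0 described genes, and the only excitatory marker described, Camk2a, had 167 CPM in Lamp5 Slc35d3 and 272 CPM in other Lamp5. The intronic share was lower in Lamp5 Slc35d3, as given above. With cells of at least 20% intronic counts only, 23 against 40, there were 713 higher and 1097 lower genes, and the fold of Slc35d3 was 3.07. The part of the glial markers, intronic share and recording period in the folds was not tested.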

How the data were processed

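Patch-seq libraries of single neurons from mouse primary motor cortex were made and sequenced by the authors, who aligned reads to mm10 with STAR 2.5.4b and counted them per gene; the deposited files hold exonic and intronic counts per gene and cell, not normalized. Groups were the t-types in the labels, which the authors assigned from this RNA. Of 1329 columns of exonic counts, 9 named no sample and were not used. The 85 spike-in rows, 4.92% of the counts of the 90 cells, were left out of totals.

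Counts were summed per group and scaled to CPM, and 1 CPM was added before log2 folds were taken. Since the labels name no animal, no test was made and no replicate error exists; the spread over cells, t-types and recording days is given in its place. Intervals are exact, from the Poisson counts or the binomial split of the sums. No pair of the 90 libraries held identical counts. Computation used Python 3.11.15, numpy 2.4.6, pandas 2.3.3 and scipy 1.17.1, and was tested on simulated data.

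The members and 39 gene lists were chosen with earlier results of these data known. Named genes were those in type names, the 12 with the largest folds in each direction (at least 50 CPM in the higher group, reads in at least 50.0% of its cells and days, moved less than 1.5-fold by any 1 cell), list members past the fold, and genes most like Slc35d3. Of the list members the text gives a selection made after their values were seen. Likeness to Slc35d3 was taken over the 15 t-types of the Lamp5, Sncg and Vip families with at least 5 cells only. Coordinates are from Gencode M21 on GRCm38, the assembly of mm10; the authors counted on another release.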

Additional observations from a re-analysis of the deposited data

Results flagged for a closer look

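Depth, genes detected and intronic share were compared within each of the 4 t-types of 4 to 10 cells, 12 comparisons in all, for a cell far from the others of its type. This way of marking cells picks out about 1 in 20 groups by chance, and 3 were marked. In Lamp5 Egln3_1, 1 of 9 cells had 4072 genes detected, against 6009 to 7563 in the others, and in the same type the lowest intronic share was 3.94%, against 35.1% to 60.6%. In Lamp5 Egln3_2, 1 of 9 cells held 3297294 exonic counts, against 354624 to 1748301 in the others. All 3 lie in the group of other Lamp5 cells, and leaving out any 1 cell of either group kept the higher genes between 547 and 607 and the lower genes between 837 and 951.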

How the results depend on the processing

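The log2 fold change of Slc35d3 was 2.23, and the counts were 561 genes higher and 880 lower, 38.9% of them higher. With the mean CPM per cell, 912 genes were higher and Slc35d3 was at 1.94. With 10 CPM added, there were 316 higher and 518 lower genes and Slc35d3 was at 1.40, and with no filter on low values 1581 higher and 2814 lower. With cells thinned to 200000 counts, 960 genes were higher and Slc35d3 was at 1.68. The mean over recording days gave 1082 higher and 1340 lower genes and 1.80 for Slc35d3, and the mean over the types of the reference 1379, 1497 and 3.15. In the last recording year only, Slc35d3 was at 2.58, and with intronic shares of at least 20% at 3.07. Scaling by the median of ratios moved all folds by 0.06 at most on the log2 scale.

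Within April to June, 1346 genes were lower, Slc35d3 was at 1.85 and Pax6 at 0.26. Within July to December, 1148 genes were higher, 64.3% of those called, Slc35d3 was at 4.46, Timp2 at 1.41, and the medians of neuropeptide receptors and of monoamine and acetylcholine receptors were 0.84 and 0.54. On days with both groups, 283 genes were higher, 56.9% of those called, 214 were lower, and Slc35d3 was at 5.38. On those days genes lower in the whole comparison stood at 1.73 (Pax6), 0.16 (Galntl6), 4.13 (Slc35f1), 1.25 (Npas1), 0.25 (Npas3), 1.46 (Nr2f2), 0.07 (Npy1r), 0.13 (Grik2), 0.07 (Scn2a), 1.13 (Cplx2), 4.27 (Timp2), 0.80 (Sema3e), 0.02 (Nrxn3), 2.09 (Tenm1) and 0.23 (Pcdh11x), and genes higher at -1.87 (Hcrtr2), -4.90 (Htr1f) and -0.54 (Rab3b). Rxfp1, Fstl5 and Cnr1 kept their sign there with folds of -0.42, -0.14 and -0.18, while Reln, Cxcl14 and Ndnf stood at -2.82, -2.68 and -2.06. These days held 12 cells.

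Against the Pdlim5 types Slc35d3 was at 1.91, Pax6 at 0.27, Egln3 at 0.47 and Cplx2 at 0.74. Against the Egln3 types 1221 genes were higher, 52% of those called, and Slc35d3 was at 2.79. Against Lamp5 Pax6 2173 genes were higher, 63.4% of those called, with Slc35d3 at 5.07, Atg7 at -0.47, Tmem263 at -0.02, Ndnf at 3.77, Sema3e at 4.82, Pcdh11x at 0.07, Aldoc at 0.49 and the monoamine and acetylcholine receptor median at 3.67. From intronic counts, where its levels were too low to show a difference, Slc35d3 was at -0.02, Tmem263 at -0.23, Pitpnm3 at 0.91, Kcnd3 at 0.04, Pcdh18 at 0.05, Egr2 at -0.22 and Mobp at -1.08, and the astrocyte marker median at 0.26. The median of the names of Lamp5 types in other areas, 1.53 over 4 genes, was -0.40 from intronic counts, -0.21 with both kinds of counts, -0.02 with intronic shares of at least 20%, and between -0.09 and 1.84 with 1 cell left out and between -0.19 and 1.84 with 1 day left out. The cause of these moves was not tested.

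Leaving out single cells, Slc35d3 stayed between 2.01 and 2.56, and leaving out single days between 1.86 and 2.56. Of 103 genes named by rule and past the fold, 44 had the same sign in all 19 settings and 59 had the other sign in at least 1, of which the shared days gave 33 cases, Lamp5 Pax6 as reference 21 and intronic counts 17. The alternatives without Lamp5 Egln3_1, without the cell of mostly spike-ins and with intronic shares of at least 20% were chosen after seeing the data. No paired analysis was possible because the replicate numbers only count cells within a t-type and no test was made. The days with both groups, above, were compared with no test. Depth limits genes read in few cells, and the lack of named animals limits every fold to these cells.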

Other observations

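Over 15 t-types of the Lamp5, Sncg and Vip families with at least 5 cells, the genes whose levels ranked most like those of Slc35d3 among 9958 genes were Tmem173 (Spearman rho 0.883), Gm28044 (0.879), Kcmf1 (0.819), Kcnk13 (0.793) and Sap30 (0.787). Only 5 of the 15 types had any Slc35d3 read, so these ranks rest on few types, and no test was made.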
